A study of Mus musculus with 15 samples.

Results

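The genes described here are the 6 Iroquois homeobox genes of the mouse, Irx1 to Irx6, and the POU homeobox gene Pou3f3, 7 of the 46517 genes counted in kidney RNA, together with the CpG positions around the 2 Irx gene clusters. The genes were selected on the RNA difference between mutant and control kidneys seen in these same samples. That difference, and every other measure of the same mutant against control contrast, is given for them as a description. Counts of calls in that contrast are printed for them only beside the share over all genes or positions, and support nothing. The cluster of Irx1, Irx2 and Irx4 spans chromosome 13, 71708232 to 73519622, and the cluster of Irx3, Irx5 and Irx6 spans chromosome 8, 91548511 to 92930956, each from the first to the last gene with 250 kb added on either side (GRCm38). They hold 3777 and 4882 of the 4944536 positions read by reduced representation bisulfite sequencing (RRBS), a method that reads CpG methylation in DNA fragments cut at CCGG sites.

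All animals were C57BL/6. RNA came from newborn (P0) kidneys of 3 Dnmt1 f/f controls, which carry the floxed Dnmt1 allele without Cre, and 3 Six2Cre Dnmt1 f/f mutants, called KO here. RRBS covered the same 2 genotypes at P0, 3 samples each, and 3 wild type adults of 6 weeks. Dnmt1 is the methyltransferase that copies CpG methylation onto the new strand at replication, and Six2Cre acts in nephron progenitors and their descendants, so the collecting duct, stroma and vessels keep the gene. The labels name the source as Six2+ cells, while the extraction text describes whole kidneys, and nothing states that samples of a group came from separate animals, so p-values measure the spread between these samples.

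Irx proteins are homeodomain transcription factors of the TALE class, and their genes lie in paired clusters. In the developing nephron, Irx1, Irx2 and Irx3 mark the middle of the S-shaped body, the stretch that gives rise to the proximal tubule and the loop of Henle. Pou3f3, also called Brn1, is a transcription factor needed for the loop of Henle, the macula densa and the distal tubule.

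Gene totals were 26773937 to 34102567 counts per RNA sample. RRBS samples held 18424875 to 88765177 calls, and the median depth of a usable cluster position was 16 to 80 calls. Dnmt1 had 93.7 to 111 CPM (counts scaled to library size) in the KO samples and 156 to 188 CPM in the controls, without overlap. Markers showed several kidney compartments in every sample: summed CPM was 3249 to 3783 over 7 stromal genes in controls and 3138 to 3689 in KO, and 717 to 1532 over 9 ureteric and collecting duct genes in controls and 1111 to 1722 in KO. Within these sums, 3 of the 7 stromal markers were called higher in KO and 0 lower: Foxd1, with group means of 17.9 and 55.2 CPM, Pdgfra, with 158 and 273, and Meis1. Of the 9 ureteric and collecting duct genes 1, Ret, was called higher and 0 lower. In fits without a single sample, 2 to 4 stromal and 0 to 2 ureteric and collecting duct genes were called higher. Neural, heart muscle and adrenal markers summed to 2.74 to 7.12 CPM in controls, and to 3.64 to 20.2 in KO. The 5 leukocyte markers summed to 52.0 to 77.2 CPM in controls and 53.6 to 73.1 in KO. Of them 1, Ptprc, was called higher (group means 11.9 and 20.6 CPM) and 0 lower, with 0 to 2 higher in fits without a single sample. The 5 podocyte markers summed to 588 to 900 CPM in controls and 177 to 221 in KO, with 5 of 5 called lower. The 5 endothelial markers summed to 552 to 797 against 367 to 445 CPM, with 4 of 5 called lower, or 2 without KO sample 1 or KO sample 2. The nephron progenitor markers split: Cited1 and Itga8 were called lower, Eya1 and Osr1 higher. Without control sample 1 or any 1 KO sample 0 progenitor markers were called higher by edgeR, and 1 without control sample 2. Six2 itself had 82.2 ± 35.6 CPM in controls and 94.3 ± 10.2 in KO (SD, n = 3). Control sample 3 stood apart from the other controls, with 1523 Six2 counts against 3218 and 3307, and with a summed proximal tubule level of 5528 CPM against 2585 and 2323. In bulk RNA, fewer cells of a type and less RNA per cell cannot be told apart. The part of these marker shifts in the results on the Irx genes and Pou3f3 was not tested.

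Irx1 and Irx2 had the lowest KO levels relative to control. Irx1, on chromosome 13 from 71958232 to 71963723, had 89.3, 70.5 and 44.6 CPM in controls and 13.2, 14.6 and 13.8 CPM in KO. The KO samples lay within a narrow range far below the controls, among which control sample 3 was lowest and control sample 1 highest. The fitted KO level was 4.91-fold lower (log2 fold change -2.29, SE 0.24). Irx2, on the same chromosome from 72624430 to 72634196, had 33.9, 31.5 and 23.3 CPM in controls and 5.14, 4.95 and 5.32 CPM in KO, again without overlap and with control sample 3 lowest. Its fitted level was 5.75-fold lower (log2 fold change -2.52, SE 0.19). Without control sample 3 the log2 fold changes were -2.53 for Irx1 and -2.67 for Irx2.

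The expressed genes of the chromosome 8 cluster kept more of their control level. Irx3, at 91798511 to 91801654, had 52.3, 48.6 and 38.8 CPM in controls and 28.4, 27.8 and 32.8 CPM in KO. The groups did not overlap, and the gap between the lowest control, sample 3, and the highest KO sample was small beside the spread of the controls. The fitted fold was 1.57 lower (log2 fold change -0.65, SE 0.15). Irx5, at 92357796 to 92361456, had 7.22, 7.18 and 6.74 CPM in controls and 3.77, 4.26 and 3.99 CPM in KO, 2 tight groups well apart. Its fitted fold was 1.76 lower (log2 fold change -0.81, SE 0.20).

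The remaining members of each cluster were barely detected. Irx4, best known from the heart ventricle, had 9, 8 and 8 counts in controls and 7, 14 and 9 in KO. Irx6 had 5, 3 and 5 counts in controls and 6, 4 and 7 in KO. The groups overlapped for both genes, neither passed the filter on low counts, and no fold is given.

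Pou3f3, on chromosome 1 from 42695768 to 42700210, had 106, 102 and 111 CPM in controls and 68.5, 65.6 and 48.0 CPM in KO. Controls were close together and every KO sample lay below them, with KO sample 3 lowest. The fitted fold was 1.75 lower (log2 fold change -0.81, SE 0.15), and -0.67 on the log2 scale without KO sample 3.

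**Figure D1:**
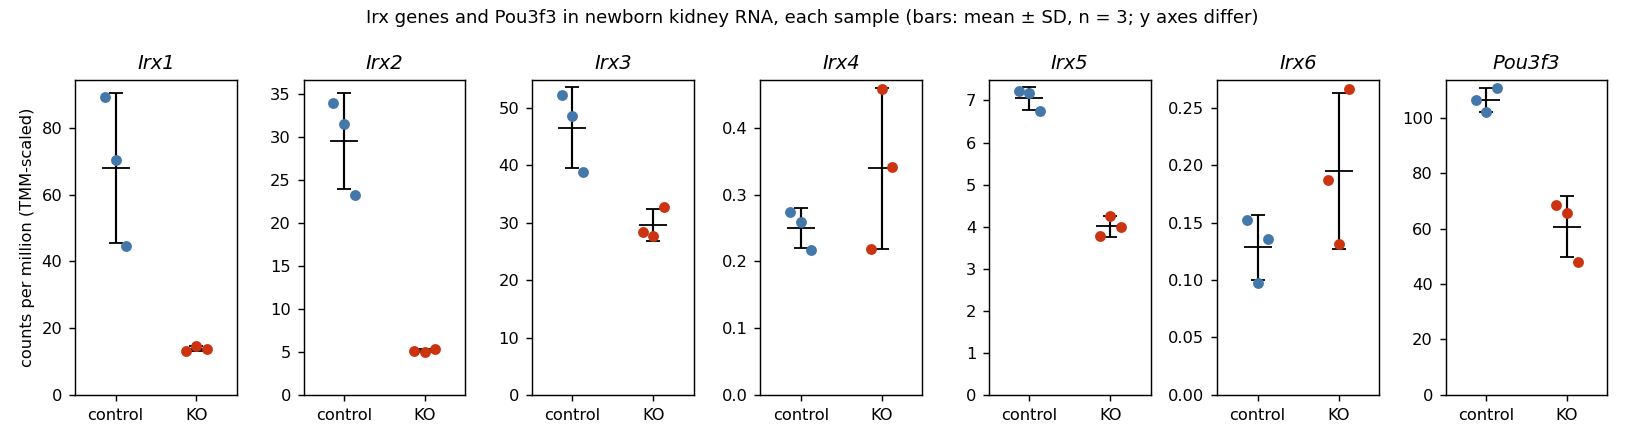
Level of each gene in CPM, scaled by the trimmed mean of M values (TMM), in 3 control and 3 KO kidneys. Points are samples, bars are the mean and SD, and the y axes differ between genes. KO samples lie below every control for Irx1, Irx2, Irx3, Irx5 and Pou3f3, while Irx4 and Irx6 stay under 0.5 CPM in all samples.

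Of the 7 members, 5 passed the filter. In the edgeR quasi-likelihood fit over 18132 genes, all 5 were among those called lower at an adjusted p under 0.05, and in all 5 every KO sample lay below every control, as the choice of genes on this contrast largely sets. edgeR fits a count model to each gene and shares information on the spread between genes. Over all genes tested, 8.23% were called lower and 6.36% higher, and 17.8% had every KO sample below every control. Nothing is read from the comparison of these shares, and the calls of the members are no test. Leaving out control sample 1, control sample 2, KO sample 1 or KO sample 2 left 3 members called, Irx1, Irx2 and Pou3f3, and leaving out KO sample 3 left 4, all but Irx5. Irx3 and Irx5 were the members that lost the call, with log2 fold changes that stayed between -0.77 and -0.57 for Irx3 and between -0.87 and -0.77 for Irx5 over the 6 fits without a sample. Levels are not compared between genes, because the deposited counts are not scaled by transcript length.

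A long noncoding RNA beside Irx2 and another beside Pou3f3 were also called lower. Gm20554, annotated at 72623466 to 72628564 and overlapping the bounds of Irx2, had 0.792, 0.680 and 0.843 CPM in controls and 0.249, 0.164 and 0.266 CPM in KO, a log2 fold change of -1.76 (SE 0.37, edgeR adjusted p = 0.0155). Its level was low, and without knowledge of the strand setting its reads cannot be separated from those of Irx2. Pantr1, at 42648200 to 42694825 just before the start of Pou3f3, had 10.9, 14.2 and 8.34 CPM in controls and 4.18, 5.54 and 4.71 CPM in KO. It fell by 1.21 on the log2 scale (SE 0.25, edgeR adjusted p = 0.0142), with the groups apart. Pantr2, on the other side of Pou3f3, ranged from 0.366 to 6.96 CPM among the controls alone and was not called. The call of Gm20554 was lost without control sample 1 or any 1 KO sample (edgeR adjusted p from 0.0527 to 0.0847), and that of Pantr1 without KO sample 1 or KO sample 3 (0.0718 and 0.0612).

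Among the remaining neighbours, 1 gene was called. Ndufs6, a subunit of mitochondrial complex I that lies past Irx4, fell by 0.52 on the log2 scale (SE 0.14, edgeR adjusted p = 0.0450), and it lost the call in each fit without a single sample other than control sample 3. Fto, the RNA demethylase gene whose introns carry enhancers that reach Irx3, had 161, 135 and 117 CPM in controls and 103, 116 and 108 CPM in KO, just short of overlap, with log2 fold change -0.34 (SE 0.14, edgeR adjusted p = 0.149). Irx3os, transcribed away from Irx3 on the other strand, had 1.10, 1.29 and 1.93 CPM in controls and 1.496, 1.48 and 1.29 CPM in KO, with overlapping groups. Crnde, the noncoding neighbour of Irx5, had 2.22, 2.62 and 3.70 CPM in controls and 2.37, 1.11 and 1.71 CPM in KO, also overlapping. Neither noncoding RNA was thus set apart between the groups. The matrix metalloproteinase gene Mmp2, the acyltransferase genes Lpcat1 and Lpcat2, and the mitochondrial ribosome genes Mrpl36 and Mrps9 did not pass the threshold, with log2 fold changes between -0.25 for Mmp2 and 0.69 for Lpcat2. The pseudogenes Rpl9-ps4 and Gm10263 did not pass it either, and Capns2 had too few counts to be tested.

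Other transcription factors of the loop of Henle, the distal tubule and the connecting segment fell more often than they rose: of 16 listed, 15 were tested, 7 were called lower and 1 higher, with a median log2 fold change of -1.08 against -0.00074 over all genes tested. This list and those below were chosen with earlier results of these data known, so their counts are a description. Over all genes tested, 8.23% were called lower and 6.36% higher. Sim2 had 27.9 ± 3.91 CPM in controls and 4.74 ± 1.10 in KO (SD, n = 3), a log2 fold change of -2.55 (SE 0.22, edgeR adjusted p = 0.000288). Emx1, a homeobox factor, fell by 2.62 on the log2 scale (SE 0.26), from 21.6 to 3.53 CPM in group means. Esrrg, an orphan nuclear receptor of cells rich in mitochondria, had 56.5, 54.2 and 64.6 CPM in controls and 26.4, 25.6 and 21.5 CPM in KO, with the groups well apart. Tfcp2l1, which directs distal and collecting duct cell fate, did not pass the threshold, with 318 ± 97.8 CPM in controls and 182 ± 38.2 in KO. Sox9, a progenitor and injury factor, was the exception, rising by 0.96 (SE 0.21, edgeR adjusted p = 0.0194). No gene of the list was called higher without control sample 1, KO sample 1 or KO sample 2.

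Transporters, channels and junction proteins of the same segments moved with the factors. Of 26 listed, 25 were tested, 19 were called lower and 2 higher, with a median log2 fold change of -2.33. Umod, which encodes uromodulin, the main secreted protein of the thick ascending limb, had 364 ± 66.4 CPM in controls and 16.1 ± 2.72 in KO (SD, n = 3), a log2 fold change of -4.50 (SE 0.20, edgeR adjusted p = 2.49e-05). Slc12a1, the sodium-potassium-chloride cotransporter of the limb, had 676 ± 96.4 and 83.3 ± 21.1 CPM. Bsnd, a chloride channel subunit, fell by 3.02 (SE 0.17) and Cldn10, a tight junction claudin, by 2.69 (SE 0.15) on the log2 scale. Higher calls were Ptgs2, the cyclooxygenase of the macula densa, by 1.32 (SE 0.24), and Calb1, the calbindin of the distal and connecting tubule, by 0.56 (SE 0.14). In each fit without a single sample other than control sample 3, 1 of the 25 genes was called higher rather than 2.

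Proximal tubule genes, which mark the neighbouring segment, fell as well: 13 of 14 tested were called lower and 0 higher, with a median log2 fold change of -2.80. Aqp1, a water channel also found in the descending thin limb, had 358 ± 31.9 CPM in controls and 74.1 ± 4.53 in KO (SD, n = 3). Slc3a1, an amino acid transporter subunit, fell by 2.69 (SE 0.22), Slc5a1, a glucose cotransporter, by 2.07 (SE 0.18), and Lrp2, the endocytic receptor megalin, by 2.22 (SE 0.22) on the log2 scale. The proximal sum reached 5528 CPM in control sample 3, the control with the lowest Irx1, Irx2, Irx3 and Irx5.

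Genes of the S-shaped body and the Notch pathway came last in number of calls among the nephron lists. Of 18 tested, 3 were called lower and 0 higher, with a median log2 fold change of -0.15. Lhx1, the LIM factor of the early nephron, fell by 0.74 (SE 0.18) and Wt1, which persists in podocytes, by 0.59 (SE 0.15) on the log2 scale. Notch2, a receptor needed for proximal fate, had 220, 204 and 153 CPM in controls and 201, 202 and 207 CPM in KO, with overlapping groups. The count called lower moved to 0 without control sample 1, KO sample 1 or KO sample 2, to 1 without KO sample 3, to 5 without control sample 2 and to 8 without control sample 3.

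Relatives of the members from both homeobox families were counted as well. Of 12 other TALE homeobox genes tested, 2 were called higher and 0 lower by edgeR, or 1 lower without control sample 3, with a median log2 fold change of 0.16. Mkx, the Mohawk homeobox gene of tendon and connective tissue, had 3.31 ± 0.115 CPM in controls and 8.69 ± 2.30 in KO (SD, n = 3). Meis1, a stromal factor in this organ, rose by 0.54 (SE 0.14, edgeR adjusted p = 0.0377), a call lost in 5 of 6 fits without a single sample (all but the fit without control sample 3). Meis2 had a log2 fold change of 0.34 (SE 0.12) and did not pass. Of 13 other POU genes, 6 were tested and 0 called in either direction by edgeR, and Pou4f3 had 0 counts in every sample. Pou6f1 had 45.4 ± 9.21 and 37.2 ± 1.80 CPM.

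**Figure D2:**
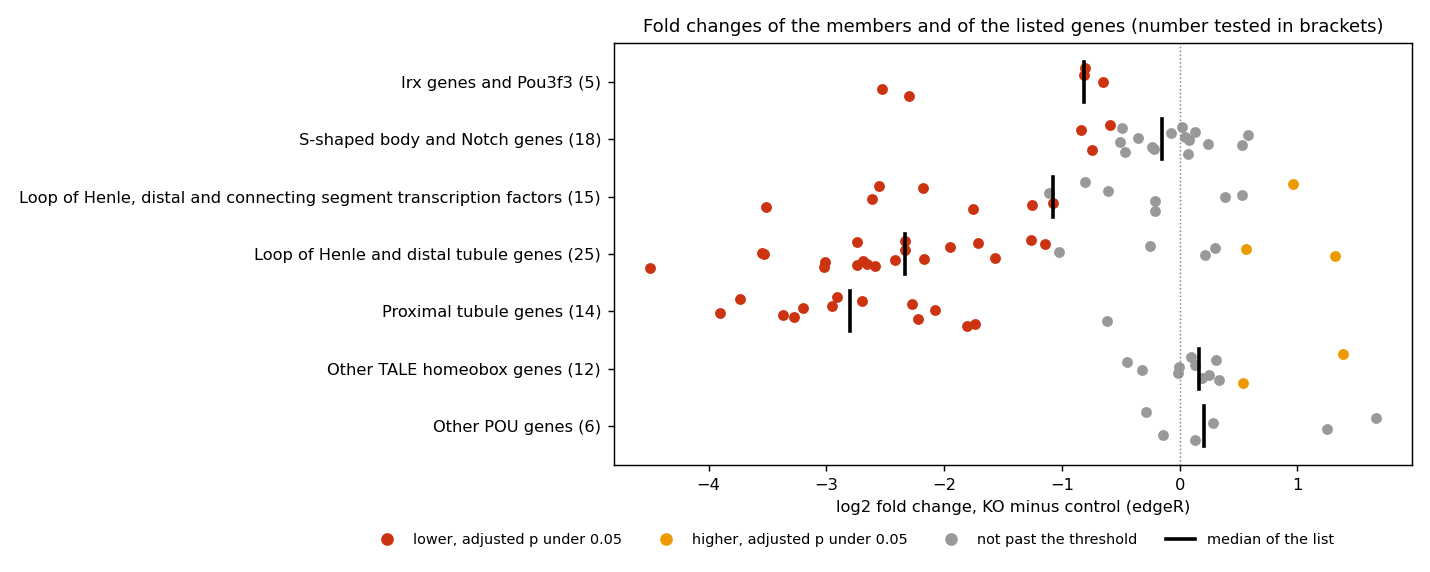
Log2 fold change (KO minus control, edgeR) of each tested gene in the listed groups, one point per gene, coloured by call at an adjusted p under 0.05, with the median of each group as a black line. The 5 tested members lie between -2.52 and -0.65, the loop of Henle and proximal groups have medians of -2.33 and -2.80, and the other TALE and POU groups have medians of 0.16 and 0.21.

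The genes with the most similar profile over the 6 RNA samples were found by the root mean square difference of log2 CPM, each gene centred on its own mean, among 13082 genes. Hao2 was nearest to Irx1 (0.143), followed by Irx2 (0.196) and Nat8f1 (0.240). Stk32b was nearest to Irx2 (0.118), followed by Hao2 (0.136) and Nat8f1 (0.169). Cldn5 (0.0506), Schip1 (0.0517) and Itga1 (0.0535) were nearest to Irx3, and Uqcrc1 (0.0334), Acads (0.0413) and Prdx5 (0.0419) to Irx5. Scube1 (0.0575), Rap1gap2 (0.0817) and Tdrp (0.0860) were nearest to Pou3f3. Of these 12 genes that are not members, each shares its samples and library scaling with the member, and the likeness is a description.

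The starts of the members were almost free of methylation in all groups. RefSeq promoter sequences (GRCm38.p6) matched 4 of the 7 members, and the 250 bases before the start are shown for them because they hold the CpGs whose methylation could be read beside expression. CpG dinucleotides are in capitals. Irx2 lies at chr13:72628570-72628819 (plus strand), Irx3 at chr8:91801655-91801904 (minus strand), Irx4 at chr13:73260247-73260496 (plus strand) and Pou3f3 at chr1:42695518-42695767 (plus strand).
Irx2: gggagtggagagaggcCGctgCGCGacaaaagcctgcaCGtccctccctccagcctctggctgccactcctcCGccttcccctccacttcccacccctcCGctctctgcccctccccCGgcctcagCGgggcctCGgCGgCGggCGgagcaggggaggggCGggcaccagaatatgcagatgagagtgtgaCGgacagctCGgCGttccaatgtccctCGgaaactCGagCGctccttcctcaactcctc
Irx3: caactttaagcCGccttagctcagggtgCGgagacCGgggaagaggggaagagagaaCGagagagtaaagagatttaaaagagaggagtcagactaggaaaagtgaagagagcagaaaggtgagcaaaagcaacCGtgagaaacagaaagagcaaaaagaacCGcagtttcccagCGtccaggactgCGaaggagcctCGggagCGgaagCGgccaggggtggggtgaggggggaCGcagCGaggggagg
Irx4: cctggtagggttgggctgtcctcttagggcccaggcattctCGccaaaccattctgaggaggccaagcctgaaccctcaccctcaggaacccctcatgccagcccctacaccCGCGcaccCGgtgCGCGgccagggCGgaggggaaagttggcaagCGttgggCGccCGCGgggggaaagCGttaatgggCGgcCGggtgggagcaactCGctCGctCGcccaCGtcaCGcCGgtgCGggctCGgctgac
Pou3f3: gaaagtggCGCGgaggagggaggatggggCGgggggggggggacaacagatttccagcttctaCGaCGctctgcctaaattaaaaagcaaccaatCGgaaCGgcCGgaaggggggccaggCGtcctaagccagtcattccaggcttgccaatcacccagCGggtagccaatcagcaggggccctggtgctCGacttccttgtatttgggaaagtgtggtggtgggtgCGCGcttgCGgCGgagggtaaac

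These windows hold 19, 13, 22 and 15 CpGs for Irx2, Irx3, Irx4 and Pou3f3, against a median of 6 over 32851 promoters of the same length. The CCGG motif, which reads the same on both strands and is where the RRBS enzyme cuts, occurs in all 4 windows and in 47.1% of all promoters. Pooled over the calls in each window, methylation ranged from 0 to 1.10% over the 9 RRBS samples at Irx2 (148 to 473 calls), from 0 to 3.48% at Irx3 (46 to 251 calls), from 0 to 4.12% at Irx4 (83 to 631 calls) and from 0 to 3.12% at Pou3f3 (26 to 149 calls). The highest value was in an adult for Irx4 and Pou3f3 and in a control for Irx2 and Irx3. With the fewest calls, 26 in adult sample 1 at Pou3f3, a value of 0 allows up to 11.5%, counting error alone. Irx2, Irx3 and Pou3f3, whose RNA was lower in KO, thus had measured values under 5% in every sample. So did Irx4, whose RNA was near 0 in both groups, and no test of a difference between the genes was made. Some values of 0 allow more than 5%, with 10.3% in KO sample 3 at Pou3f3 and 6.52% in adult sample 1 at Irx3. At Pou3f3 only 2 positions were read in a window of 15 CpGs, so its values do not describe the whole window. At Irx3 and Irx4 no position met the depth minimum in all samples, so those values rest on pooled shallow positions.

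The wider window within 1 kb of each gene start was read at positions that met the depth minimum in all samples (both annotated ends for Irx1, Irx5 and Irx6, whose strand was not used here). There, group means lay between 0.288% and 5.45% over the 7 genes and 3 groups. Over 7297 genes with enough positions, 85.5% of starts were under 10% methylated in controls, so this level is common. Irx1 had 1.45, 2.87 and 1.39% in controls, 2.26, 2.397 and 1.14% in KO, and 4.16, 5.87 and 6.33% in adults. Every adult was above every control and the KO samples overlapped the controls. Pooled over both ends, Irx1 was 3.55 percentage points higher in adults (exact permutation p = 0.1, two-sided, the smallest that 3 against 3 samples can give). The ends were not alike. Beside the lower coordinate, the window at 71957001 to 71958000 had means of 3.33% in controls and 11.4% in adults. Near the other end, the window at 71962001 to 71963000 had 0.828% and 0.892%. The pooled value thus does not show a difference at the start itself. The pooled difference was 2.49 points with at least 5 calls per position and 5.59 with at least 20, where the groups overlapped (exact permutation p = 0.4). Irx3 had 1.23, 1.83 and 0.834% in controls, 2.18 to 3.12% in KO and 0 to 0.442% in adults, small differences that did not overlap. Its KO difference of 1.45 points was 0.089 points with at least 20 calls. Irx2, Irx4, Irx5, Irx6 and Pou3f3 overlapped between the groups in both comparisons.

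**Figure D3:**
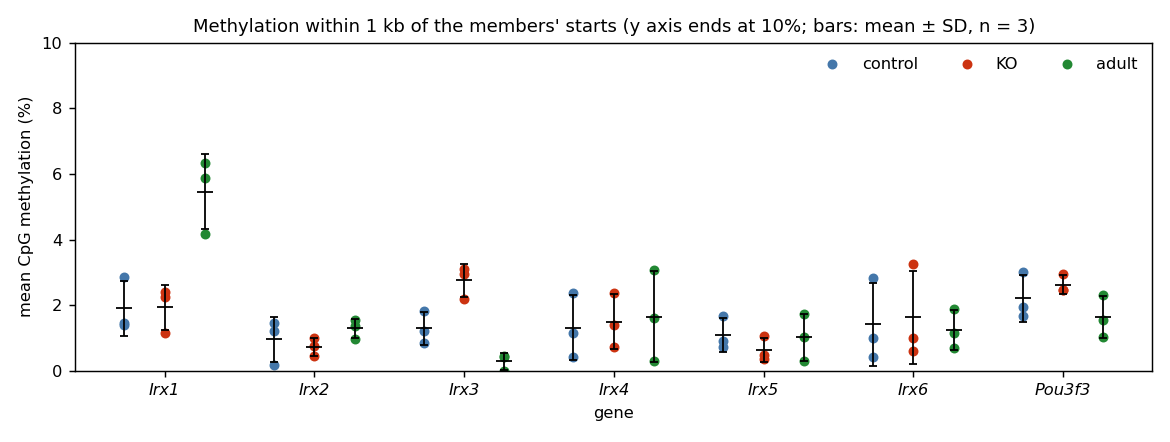
Mean CpG methylation within 1 kb of the start of each member (of both annotated ends for Irx1, Irx5 and Irx6) in each RRBS sample. Bars give the mean and SD (n = 3), and the y axis ends at 10%. All values lie under 7%, and the adults of Irx1 (4.16 to 6.33%) lie above its controls (1.39 to 2.87%).

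Averaged over each whole cluster, positions beside the genes included, methylation was lower in KO kidneys. Over the 300 positions that reached 10 calls in each of the 9 samples, the Irx1-Irx2-Irx4 cluster had 45.0, 44.7 and 44.6% in controls and 33.1, 29.4 and 32.1% in KO. Over 401 positions, the Irx3-Irx5-Irx6 cluster had 42.5, 43.6 and 42.2% in controls and 32.6, 30.3 and 35.2% in KO. All KO samples were lower, by 13.2 and 10.1 percentage points on average. Other autosomal positions, weighted to the same spread of adult methylation, fell by 11.9 and 12.6 points, so the clusters differed from them by -1.37 and 2.48 points. In controls these other positions had 44.6 and 47.6%, against 44.8 and 42.8% in the clusters. The Irx3-Irx5-Irx6 cluster thus started lower and had less to lose, and the part of this in the 2.48 points was not tested. The size of the fall in the first cluster depended on the depth asked for, with 10.5 points at 5 or more calls and 17.3 points at 20 or more.

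**Figure D4:**
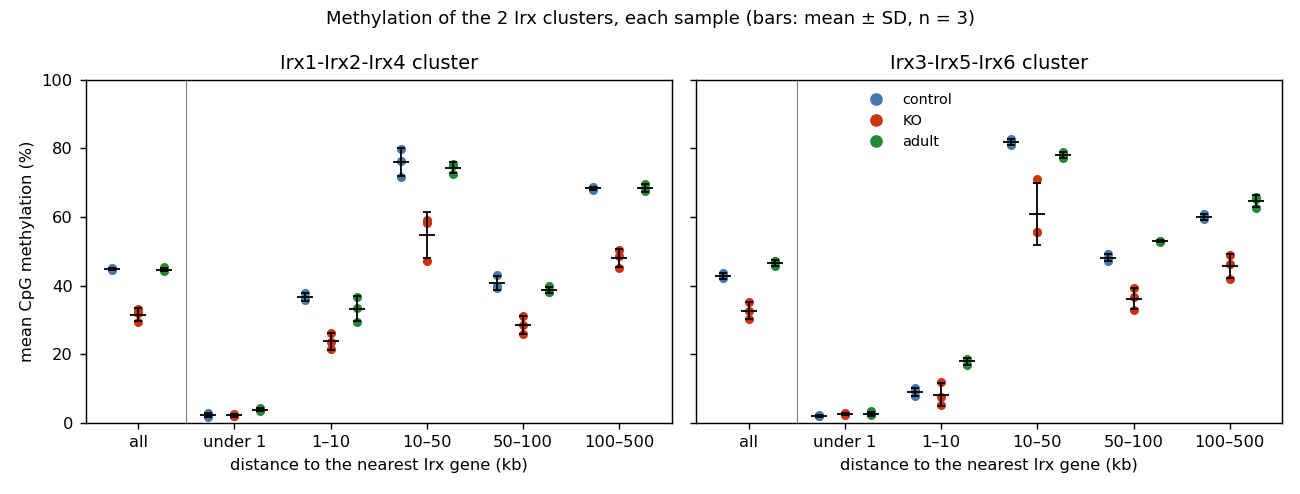
Mean CpG methylation of the 2 Irx clusters in control, KO and adult kidneys, over all positions and by distance to the nearest Irx gene. Points are samples and bars the mean and SD (n = 3). Positions under 1 kb stay near 2 to 4% in every group, and beyond 10 kb the KO samples lie below the controls.

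Distance to the genes split the clusters sharply. Within 1 kb of an Irx gene, 84 positions on chromosome 13 had 2.30 ± 0.496% in controls and 2.17 ± 0.426% in KO (SD, n = 3), and 77 positions on chromosome 8 had 2.10 ± 0.266% and 2.58 ± 0.345%. From 10 to 50 kb, methylation in controls was 76.0 ± 4.14% and 81.8 ± 0.830% for the 2 clusters, against 54.9 ± 6.68% and 60.8 ± 8.92% in KO. From 100 to 500 kb it was 68.3 ± 0.448% and 60.03 ± 0.799% in controls against 48.1 ± 2.62% and 45.7 ± 3.46% in KO. Positions beside the genes were thus low in both groups, and the KO samples lay below the controls at the more distant ones. The stretch from 1 to 10 kb differed between the clusters, with 36.7% on chromosome 13 and 8.97% on chromosome 8 in controls.

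Counts over single positions are a description too. In a quasi-binomial model of the calls at each position, with spread shared over positions, 235 of 777 cluster positions were called lower in KO and 4 higher, by a difference of 10 points or more with an adjusted p under 0.05, where 35.6% of all positions tested were called lower and 0.146% higher. The cluster share was 30.2% lower and 0.515% higher, and nothing is read from it. Of 50 windows of 1 kb with at least 5 positions, 19 had every KO sample below every control and 2 had every KO sample above, where 40.3% and 2.16% of all autosomal windows did. The steepest fall was at chromosome 8, 92172001 to 92173000, between Irx3 and Irx5, with 88.2, 76.5 and 73.8% in controls and 52.8, 26.6 and 24.97% in KO. The next were at 92205001 (64.7 to 28.8%, group means) and 92026001 (82.9 to 49.3%), and on chromosome 13 at 72299001 (80.1 to 45.6%), between Irx1 and Irx2. These 4 windows lie 151796 to 324430 bases from the nearest Irx gene.

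A few positions ran against the general loss. The window at chromosome 8, 92134001 to 92135000, 222796 bases before Irx5 and outside annotated genes, had 21.2, 18.3 and 13.0% in controls, 41.3, 37.8 and 56.0% in KO and 65.6, 45.4 and 39.0% in adults. Every KO and every adult sample was above every control. The 4 positions called higher in KO were 2 in this window, at 92134234 and 92134239, and 2 within Fto, at 91612601 and 91644756. The position at 91612601 had 31.6, 32.7 and 32.1% in controls, 48.9, 56.3 and 57.1% in KO and 76.4, 77.8 and 89.4% in adults, so KO lay between newborn control and adult. These positions were picked out after their values were seen.

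Between newborn control and adult, methylation was higher in the adults at the Irx3-Irx5-Irx6 cluster, while the other cluster had no steady direction. The Irx1-Irx2-Irx4 cluster had 45.3, 44.5 and 44.2% in adults, overlapping the controls, a difference of -0.109 points (exact permutation p = 0.8, two-sided). The Irx3-Irx5-Irx6 cluster had 47.2, 47.0 and 45.7% in adults, all above the controls, a difference of 3.86 points (exact permutation p = 0.1, two-sided, the smallest possible). All other autosomal positions moved by 0.0185 points between the same groups, and the gain of the cluster relative to them was 3.85 points (exact permutation p = 0.1). Unlike in the KO comparison, these positions were not weighted to the methylation level of the cluster. They had 50.8% in controls against 42.8% in the cluster. Weighting positions by coverage changed the cluster difference to 1.86 points (exact permutation p = 0.2) on chromosome 8 and -4.49 points (exact permutation p = 0.1) on chromosome 13. Relative to other positions weighted likewise, the differences were 8.28 and 1.92 points. The 2 exact tests do not compare the clusters with each other, and that difference was not tested. Adults differ from controls in age and in carrying no floxed allele, which cannot be told apart here, and cell composition changes with age too and was not measured in adult RNA.

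Single positions that gained methylation in adults lay mostly in the chromosome 8 cluster. The position model called 35 of 1276 cluster positions higher in adults and 6 lower, or 2.74% and 0.470%, where 1.79% of all positions tested were called higher and 1.84% lower. By cluster, 30 of 699 positions on chromosome 8 (4.29%) and 5 of 577 on chromosome 13 (0.867%) were called higher. Of 50 windows, 13 had every adult above every control and 2 every adult below, where 12.9% and 20% of all autosomal windows did. The called gains ranged from 12.01 to 59.0 points with a median of 30.4, and 23 of the 35 positions started under 20% in controls. Neighbouring positions share reads, so these counts are not counts of independent events. The count of gains ran from 22 to 26 in fits without a single sample. That was 1.60% to 2.02% of cluster positions, where 0.864% to 1.11% of all positions were called higher.

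Of the 35 gains, 10 lay within 5 kb of Irx3, 7 in Fto and 3 in Lpcat1, and 17 of the 35 lay outside annotated genes. The positions tested in each of these places were not counted, so no share is given and nothing is read from these counts. Within the Irx3 gene, 3 positions between 91799422 and 91799556 had a mean of 4.88, 8.93 and 2.70% in the controls and 33.5, 38.8 and 31.6% in the adults. Their adjusted p-values ran from 0.00755 to 0.0140, and the gain lies towards the end of the gene, since Irx3 is read on the minus strand and starts at 91801654. Just before the start of Irx3, the window at 91803001 to 91804000 had 11.7, 9.42 and 4.45% in controls, 3.54, 14.1 and 1.39% in KO and 37.0, 39.4 and 25.4% in adults. Running on from it, and sharing its position 91803922, 4 called positions within Irx3os up to 91805891 had 5.36, 5.39 and 5.17% in controls, 1.90, 9.36 and 1.77% in KO and 25.4, 33.3 and 17.5% in adults. These groups hold positions picked because they were called higher. Over all 29 positions in the Irx3 gene and 1 kb to either side that met the depth minimum in all 9 samples, which include 1 of those 3, controls had 3.31, 3.76 and 2.11% and adults 5.34, 3.32 and 4.87%, with overlapping groups (exact permutation p = 0.2, two-sided). Within 1 kb of the start, adults stayed between 0 and 0.442%. Over all 36 positions from 1 to 10 kb of a gene of this cluster, controls had 9.17, 10.1 and 7.68%, KO 5.12, 11.8 and 7.54%, and adults 18.3, 18.7 and 16.8%, with adults apart from the others. These 36 include the 4 called positions within Irx3os and those called at 91803048 and 91803054. The adult difference over them is therefore not free of the picking, and it was not computed without the called positions.

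In Fto, the 7 called positions lay between 91612525 and 91657238, 141273 to 185986 bases beyond the end of Irx3. Their mean was 28.3, 35.8 and 33.2% in controls and 74.5, 70.2 and 76.4% in adults. In the 6 of them that were read deeply enough in KO, the KO samples had 40.5, 36.4 and 58.9%, against a control mean of 32.6% at the same positions. These positions were picked because they were called higher in adults, which sets the adults above the controls. A pair of other Fto positions, at 91639168 and 91639193, was called lower in adults. All KO samples lay above the control mean and below the adults, but KO sample 2, at 36.4%, was close to control sample 2, at 35.8% over all 7. Of all 35 adult gains, 27 could be read in KO, and 14 had a KO mean below and 13 above the control mean, with 6 and 1 of them out of the control range on the low and the high side.

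**Figure D5:**
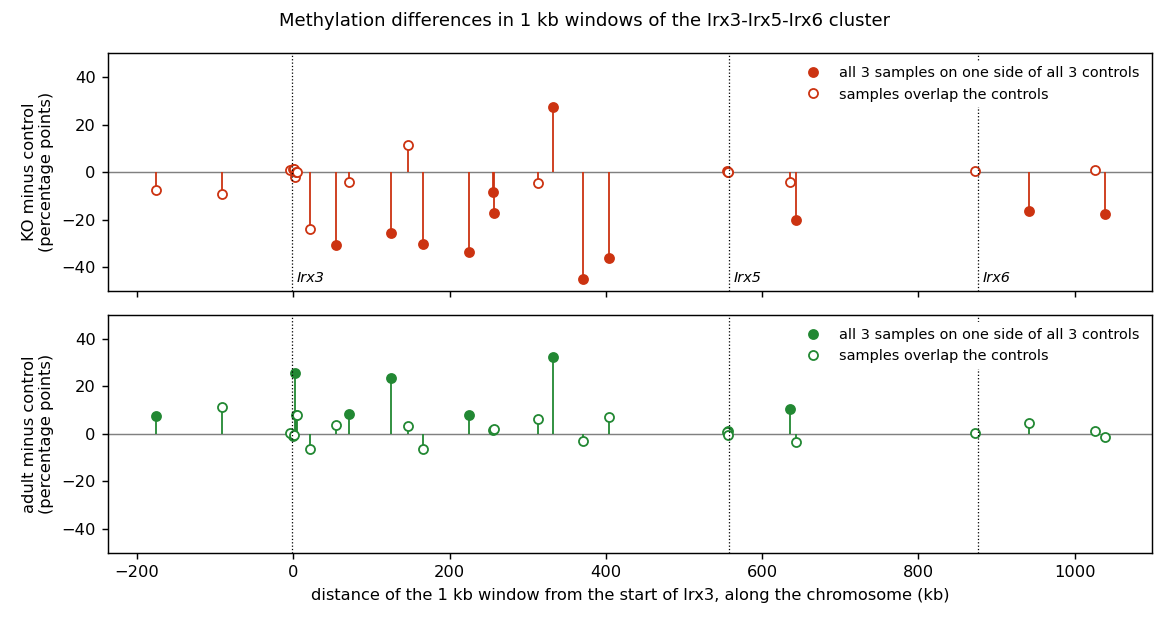
Difference in methylation from control for each 1 kb window of the Irx3-Irx5-Irx6 cluster, KO above and adult below, plotted by distance from the start of Irx3 along the chromosome. Filled points mark windows where all 3 samples lie on one side of all 3 controls. KO windows between Irx3 and Irx5 reach -44.7 points, while adult windows near Irx3 and at 1 window between the genes reach 25.4 and 32.5 points.

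Adult losses were few. The 6 positions called lower were spread over 3 places on chromosome 13, at 72424199, 73035097 and 73257954, and 2 on chromosome 8, a pair in Fto at 91639168 and 91639193 and a single position at 92491455. At 72424199, between Irx1 and Irx2, controls had 100, 98.5 and 97.0% and adults 61.9, 52.6 and 44.4%.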

How the data were processed

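Gene counts for 6 RNA samples were deposited by the authors as raw counts. Per the submitters' processing notes, STAR 2.4.1d and HTSeq 0.6.1 were used. The strand setting of the counting is not given in the sources used here. RRBS files deposited by the authors for 9 samples give the methylated percent with methylated and unmethylated calls at each position. Trim Galore and Bismark were named in the submitters' processing notes, with mm10 and GRCm38 as builds. Of 324272 read positions that fall in RefSeq GRCm38.p6 promoters, 99.6% sit on a CpG there.

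RNA was tested with edgeR 4.0.16 (quasi-likelihood test, TMM scaling, filterByExpr, Benjamini-Hochberg adjustment) over 18132 of 46517 genes, with DESeq2 1.42.0 and limma 3.58.1 voom as alternatives. Cluster means weigh positions with at least 10 calls in all RRBS samples equally and were compared by exact permutation (scipy 1.17.1). Positions were fitted one by one with a quasi-binomial model moderated over all positions, and 1 kb windows needed at least 5 positions. Neighbouring positions share reads, and calls carry no molecular identifiers, so limits from a count of 0 (3 calls) cover counting error alone. On simulated data edgeR recovered 52% of 2-fold and 93% of 4-fold changes among 17358 genes, with 100 genes changed by each fold. The position model recovered 11.0% of 25-point shifts among 60000 positions in the KO design and 12.7% in the adult design. Only 3000 of these positions were changed, where 35.6% of real positions were called lower in KO. Recovery depends on the share changed, so these values need not hold for the real data.

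Members and lists were chosen with earlier results of these data known. The text names all members, annotated neighbours with at least 10 counts in some sample, and of each list the 3 genes with the smallest edgeR p and the gene with the highest mean CPM. It also names genes called against their list's direction (Sox9, Ptgs2, Calb1), chosen after their values were seen. The called stromal, ureteric and collecting duct, progenitor and leukocyte markers were named in the same way. Called podocyte and endothelial markers are counted only. Some genes under this rule are counted in their lists but not reported here by name. Replicate numbers were not taken to pair the samples. Settings varied were the scaling, count filter, threshold, depth minimum, weighting, replicate block and each sample left out.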

Additional observations from a re-analysis of the deposited data

How the results depend on the processing

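The members were chosen on the KO contrast, so their counts of calls describe the settings and are no support. With an adjusted p under 0.01, 3 members were called, and 3 to 5 without a single sample. Over all genes, 681 were called lower and 528 higher under 0.01, 2595 and 2442 with limma voom, and 678 higher with at least 10 counts in every sample. Leaving out a sample gave 701 to 2561 lower and 647 to 2512 higher, the highest of each without control sample 3.

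The KO difference was -10.5 points at 5 calls and -17.3 at 20 calls in the Irx1-Irx2-Irx4 cluster, and -9.58 and -13.1 over both clusters. The small adult difference of the Irx1-Irx2-Irx4 cluster changed sign to 0.299 at 5 calls and 0.0363 without the flanks, and ran from -0.419 to 0.0984 without a sample. Relative to other autosomal positions, a comparison chosen after seeing the data, it became 0.217 at 5 calls and 1.92 weighted by coverage. Over both clusters the adult difference weighted by coverage was -0.761. The cause of these sign changes was not tested.

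Cluster positions called lower in KO numbered 110 at 20 calls, 126 as windows, 148 at 25 points, 112 under 0.01 and 147 to 254 without a sample. Those called higher in KO numbered 1 at 20 calls (0.395%, all 0.192%), 2 as windows (0.8%, all 0.170%) and 0 under 0.01 in the quasi-binomial model (all 0.0195%). With no overdispersion they numbered 18 (2.32%, all 0.947%). Without a sample they numbered 0 to 4, with 0.321% (all 0.0881%) at the highest count. Positions lower in adults numbered 1 under 0.01 (0.0784%, all 0.747%) and 58 with no overdispersion (4.55%, all 7.21%). Without a sample they ran from 2 (0.148%, all 0.871%) to 9 (0.699%, all 1.07%). Positions higher in adults numbered 21 as windows, 20 at 25 points, 14 under 0.01, 153 with no overdispersion and 22 to 26 without a sample.

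With the replicate number as a block, 3 members were called lower (Irx3 and Irx5 were lost), and 1005 genes were called lower and 798 higher. The block gave 236 positions lower and 2 higher in KO, and 17 lower and 41 higher in adults, in the clusters. Paired differences leave the cluster means as they were, and the adult difference of the Irx3-Irx5-Irx6 cluster had the smallest possible exact sign-flip p of 0.25. RNA samples with the same number had correlations of deviations of -0.24, -0.07 and -0.12, so no pairing by number showed, though so few values cannot exclude one. In RRBS these correlations lay between -0.00592 and 0.0106 for same and different numbers alike, which cannot decide it. The position model recovered few 25-point shifts on simulated data, so an uncalled position is not shown to be unchanged.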

Other observations

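Around Pou3f3, 250 kb to either side (chromosome 1, 42445768 to 42950210), 103 positions could be read at depth. Methylation was 31.3, 31.9 and 32.9% in controls, 25.5, 22.1 and 26.5% in KO, and 30.6, 30.5 and 30.3% in adults. Every KO and every adult sample was below every control. The adult difference was -1.54 points (exact permutation p = 0.1, two-sided, the smallest possible). The 19 positions within 5 kb of the gene had 2.33 ± 1.13% in controls, 2.08 ± 0.571% in KO and 1.43 ± 0.695% in adults (SD, n = 3), and the 84 positions beyond had 38.7 ± 1.12%, 29.8 ± 2.85% and 37.0 ± 0.337%.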
